A study of Mus musculus with 6 samples.

Results

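The translation initiation and elongation factors of HT22 cells were followed here as 1 gene family in cells exposed to aluminum (Al) and in control cells. Members were the genes whose symbol opens with Eif or Eef and a digit, without the Eif2ak genes, which code for kinases that act on eIF2. This gave 61 of the 21878 genes of the expression table, of which 57 averaged 0.1 FPKM or more (sequenced fragments scaled by transcript length and library depth) and were tested. Inside the family, 9 genes whose mRNAs are known 5' TOP mRNAs (Eef1a1, Eef1b2, Eef1d, Eef1g, Eef2, Eif3e, Eif3f, Eif3h and Eif4b) were set against the other 52 factors, of which 48 were tested.

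HT22 is an immortalized line of mouse hippocampal neuronal cells. RNA was measured in 3 control libraries (labelled C) and in 3 libraries of cells given 120 µM aluminum maltolate (labelled M, and called the Al group here), all described as biological replicates, to ask how Al exposure alters RNA levels and m6A methylation. The libraries were the input libraries of an m6A immunoprecipitation experiment and were prepared from total RNA with a stranded mRNA kit, and the immunoprecipitated libraries were not analysed here. The general methods give 24 h of exposure, and they call cells kept in medium alone the control and list maltol, the carrier of Al, as a separate group. No library of a maltol group was analysed here, so that Al and maltol cannot be told apart. In the cell line itself, 3 of 9 neuronal markers averaged 1 FPKM or more. Dlg4 was at 12.3 to 15.0 FPKM in control and 5.69 to 9.14 in Al libraries. Syn1 was at 7.47 to 7.74 against 2.18 to 2.76 FPKM and Tubb3 at 5.11 to 5.54 against 2.44 to 3.96. Syp was at 0.0453 to 0.381 FPKM, and Map2, Rbfox3, Nefl, Nefm and Snap25 were at or near 0 in all 6 libraries. All 4 fibroblast markers averaged 1 FPKM or more, led by the collagen genes Col1a1 and Col1a2. The neuronal marker sum was 25.8 to 28.2 FPKM across control libraries and 11.8 to 15.5 across Al libraries. The astrocyte sum was 13.9 to 23.0 against 1.51 to 2.61 and was almost wholly Slc1a3, while Aqp4 was at 0 in every library, Aldh1l1 overlapped between the groups and Gfap was slightly higher in the Al libraries (0.0581 to 0.101 against 0 to 0.0221). The fibroblast sum was 2010 to 3193 against 2469 to 3451, a sum carried by the collagen genes. Of the other fibroblast markers, Pdgfra was at 8.50 to 17.0 in control against 2.66 to 6.21 in Al libraries and Dcn at 3.77 to 13.4 against 1.24 to 2.30. The part of these differences in the results was not tested.

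Translation starts when initiation factors bring the initiator tRNA, the mRNA cap and the small ribosomal subunit together, and it proceeds by elongation factors that deliver each aminoacyl-tRNA and then move the ribosome along the mRNA. eIF2 carries the initiator tRNA, eIF3 is the large scaffold on the small subunit, the eIF4 factors bind and unwind the capped end of the mRNA, eEF1 delivers the tRNA and eEF2 translocates the ribosome. The mRNAs of many ribosomal proteins and of several of these factors open with a C followed by a run of pyrimidines, the 5' terminal oligopyrimidine (5' TOP) motif, and their translation is controlled together, chiefly through mTORC1 and the TOP binding protein Larp1.

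The annotated 5' ends of some members are shown first, because the split into 5' TOP genes and other factors refers to this stretch of sequence. Each window has 30 bases, 5 before and 25 from the start of a RefSeq transcript of the build GRCm38.p6, and capitals mark each run of a C followed by at least 4 pyrimidines on the transcribed strand, the only strand searched. Of the 5' TOP factors, 5 had a window. The windows lie at chr9:78481700-78481729 on the minus strand for Eef1a1, at chr1:63176826-63176855 on the plus strand for Eef1b2, at chr10:81176626-81176655 on the plus strand for Eef2, at chr7:108934410-108934439 on the plus strand for Eif3f and at chr15:102073768-102073797 on the plus strand for Eif4b.
Eef1a1: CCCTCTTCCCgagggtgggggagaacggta
Eef1b2: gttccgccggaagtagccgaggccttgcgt
Eef2: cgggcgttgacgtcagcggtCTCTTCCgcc
Eif3f: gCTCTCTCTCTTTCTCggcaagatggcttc
Eif4b: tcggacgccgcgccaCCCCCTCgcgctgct
The annotated start of Eef1a1 and that of Eif3f fell inside the run. The run of Eef2 began at base 16 and that of Eif4b at base 11 of the transcript, counted from 1 at the annotated start, and the window of Eef1b2 held no run. Eef1d, Eef1g, Eif3e and Eif3h were the other 5' TOP factors. Such a run was found in 34.6% of all 32851 RefSeq windows of the same length, in 4 of the 5 windows of the 5' TOP factors and in at least 1 window of 14 of the 41 other factors with one. A match is therefore a description of the annotated end and not evidence of a working motif. The windows of 4 other factors are shown, Eif4a2, Eif5 and Eif2s3x because they were among the 5 largest rises outside the 5' TOP list and Eif3l because it rose and its window opens with runs, a choice made with sequences and values in view. They lie at chr15:79075218-79075247 on the plus strand for Eif3l, chrX:94212627-94212656 on the minus strand for Eif2s3x, chr16:23107463-23107492 on the plus strand for Eif4a2 and chr12:111538096-111538125 on the plus strand for Eif5.
Eif3l: CTTCTTCCgCTCTCTCCCacgggCTTCTgg
Eif2s3x: ttttCCTTTTCTCTCCgagcaagatggctg
Eif4a2: cccgtaggagcagggcggccgaggagcgcg
Eif5: tgcatgcgagccaatgacaagagaagttgg
The starts of Eif3l and Eif2s3x also fell inside such runs, and the windows of Eif4a2 and Eif5 held none.

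The libraries held 37768842 to 44220124 reads on genes in control and 20973691 to 26487603 in the Al group, numbers recovered from the steps of the FPKM values and too low where all reads of a gene share a divisor. The tested factors had between 35 and 376958 recovered reads in a library. The size factors by which the FPKM were divided for the tests (medians of ratios) were 1.17 to 1.21 for control and 0.802 to 0.932 for Al libraries. Levels below are FPKM as deposited, whereas fold changes and adjusted P values come from limma on the scaled values, with Benjamini-Hochberg adjustment over all 12889 tested genes. A gene was called higher or lower where the adjusted P was under 0.05 and the log2 fold change was beyond 0.58 in either direction.

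On the scaled values most translation factors were higher in the Al group, and all 9 of the 5' TOP factors were called higher. That count depended on the scaling, since 6 of the 9 were called with the FPKM as deposited, 4 with all libraries brought to 1 common sum (equal sums) and 2 after quantile normalization. The direction turned for Eef1d with equal sums (-0.18) and for Eef1a1 and Eef2 after quantile normalization (-0.11 and -0.28). Because bulk RNA was measured, fewer cells of a type and less RNA per cell cannot be told apart. In the whole family 36 of the 57 tested genes rose, 3 fell (Eef2k, Eef2kmt and Eif5a2) and 18 were not called, where 25.5% of all tested genes rose and 23.7% fell, or 49.2% in either direction. The median log2 fold change was 1.31 over the 5' TOP factors (0.61 to 1.51), 0.68 over the 48 other factors (-1.75 to 2.16) and 0.03 over all tested genes. Of the other factors 27 rose, 3 fell and 18 were not called. The 3 Al libraries lay wholly above or below the 3 control libraries, on the scaled values, in 54 of the 57 factors and in 68.1% of all tested genes, and Eef1e1, Eif2d and Eif4e2 were the factors whose groups overlapped.

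High expression went with higher calls across the table, and the family is highly expressed. Among the 1273 tested genes that averaged 50 FPKM or more, 55.0% rose, 7.23% fell and the median log2 fold change was 0.68. All 9 of the 5' TOP factors were above that level, and so were 22 of the other factors, of which 17 rose and 5 were not called, with a median of 0.80. The direction of the other factors as a group depended on the scaling. With the FPKM used as deposited, 14 factors rose and 9 fell, where 13.5% of all tested genes rose and 41.3% fell, with medians of 0.83 for the 5' TOP and 0.19 for the other factors. With equal sums 7 rose and 15 fell, where 8.85% of all tested genes rose and 52.2% fell, with medians of 0.53 and -0.11. Over all tested genes, the same scalings shifted the median by -0.46 and -0.75. The difference between the medians of the 5' TOP and the other factors was 0.63 under all 3 scalings, which can hardly change it because they shift all genes almost equally. It was 0.035 after quantile normalization, under which the medians were 0.28 and 0.24. There 12 factors rose and 5 fell, where 21.5% and 23.3% of all tested genes did. Of the 39 calls, 17 were kept as deposited, 10 with equal sums and 14 after quantile normalization.

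**Figure D1:**
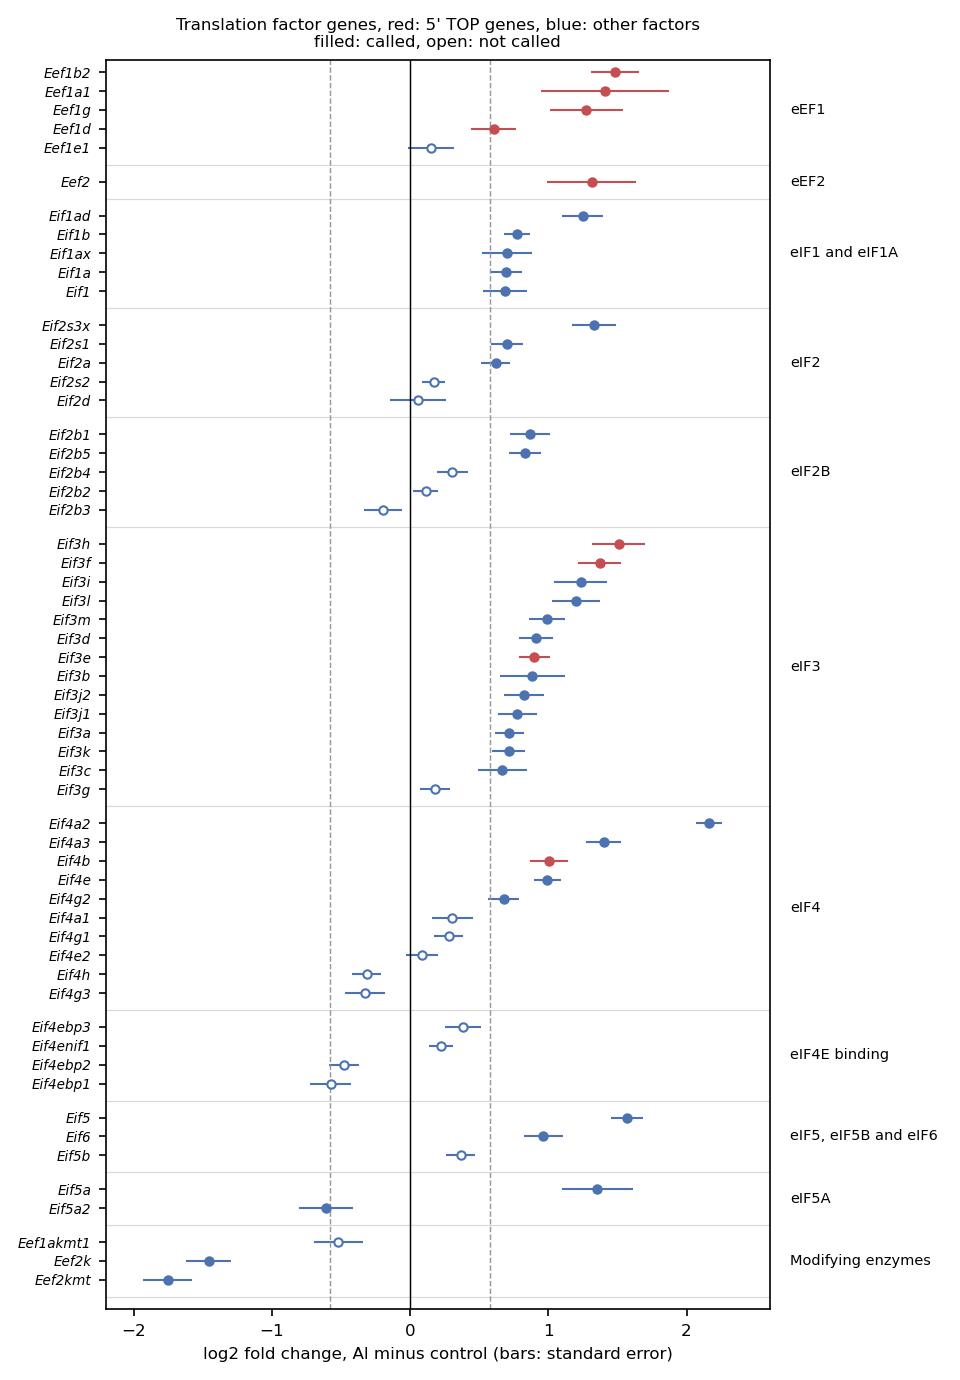
Log2 fold change (Al minus control) with its standard error for the 57 tested translation factors, grouped by complex, with the 5' TOP factors in red, the other factors in blue, called genes filled and dashed lines at the fold threshold of 0.58 on either side. The 9 red points lie between 0.61 and 1.51, Eif4a2 lies highest at 2.16 and Eef2kmt lowest at -1.75; other scaling factors shift all points by almost the same amount, and with equal sums 12 of the filled points turn negative.

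All 5 elongation factor genes among the 5' TOP genes rose, and they included Eef1a1 and Eef2, the most abundant genes of the family. Eef1a1, which codes for the GTPase that carries aminoacyl-tRNAs to the ribosome, was at 3907, 4253 and 4656 FPKM in control replicates 1 to 3 and at 7896, 7775 and 8576 FPKM in Al replicates 1 to 3. Every Al library was above every control library, and the log2 fold change was 1.41 (SE 0.46, limma adjusted P = 0.0264). The call of Eef1a1 had the largest adjusted P of the 9 and was lost when control replicate 1, 2 or 3 or Al replicate 1 or 2 was left out, although the log2 fold change stayed between 1.34 and 1.47. It was also lost after quantile normalization (-0.11), with the replicate number as a block and without the filter on low values. Its FPKM is uncertain where reads fit near-identical sequences, since 15 pseudogene transcripts matched it at 90% identity or more over at least 300 bases.

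Eef1b2, the exchange factor subunit that recharges eEF1A with GTP, was at 316, 371 and 389 FPKM in the control libraries and 692, 750.2 and 695 FPKM in the Al libraries. Here no pseudogene copy was found, and the log2 fold change was 1.48 (SE 0.17, limma adjusted P = 1.41e-04). Eef1g, the structural subunit of the same exchange complex, was at 647, 717 and 804 FPKM in control against 1331, 1461 and 984 FPKM in Al libraries (log2 fold change 1.27, SE 0.26, limma adjusted P = 0.00284). Al replicate 3 stood below the other Al libraries in this gene but above all control libraries. Under other scalings the call of Eef1g was lost with equal sums and quantile normalization (0.49 and 0.044) and that of Eef1b2 with quantile normalization (0.49). Eef1d, the other exchange subunit, was at 71.2, 76.3 and 85.8 FPKM against 85.8, 95.7 and 72.6 FPKM, values whose groups overlapped as deposited and separated after scaling. Its log2 fold change of 0.61 (SE 0.16, limma adjusted P = 0.0106) was the smallest of the 5' TOP factors and just past the fold threshold, and the call was lost without control replicate 1 or 2 or Al replicate 1 or 2 (0.49 to 0.57) and under all 3 other scalings.

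Eef2, the translocase, was at 1883, 1975 and 2191 FPKM in the control libraries and at 3358, 3815 and 3538 FPKM in the Al libraries. Its log2 fold change was 1.31 (SE 0.32, limma adjusted P = 0.00713), a 2.49-fold rise whose call was lost without control replicate 2, at a log2 fold change of 1.27, with equal sums (0.53), after quantile normalization, with the replicate number as a block and without the filter on low values. Within the eEF1 exchange complex the members did not move by the same factor, since the ratio of Eef1d to Eef1b2 was 0.217 ± 0.0102 in the control and 0.119 ± 0.0124 in Al libraries (SD, n = 3 libraries each, a ratio that no scaling factor changes).

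The 5' TOP genes for initiation factors rose as well, 3 of them for eIF3 subunits and 1 for eIF4B. Eif3h was at 233, 262 and 269 FPKM in control and 534, 584 and 439.6 FPKM in Al libraries (log2 fold change 1.51, SE 0.19, limma adjusted P = 1.96e-04), the largest of the 5' TOP factors. Eif3f, whose window carries the longest run shown, was at 197, 194 and 220.5 FPKM and 369, 411 and 351 FPKM (log2 fold change 1.37, SE 0.16, limma adjusted P = 1.17e-04). Both genes kept their call under all 16 other settings tried, and both had Al replicate 3 as the lowest Al library. Eif3e was at 93.7, 106 and 104 FPKM in control and 137, 132 and 135 FPKM in Al libraries, with a log2 fold change of 0.90 (SE 0.11, limma adjusted P = 2.03e-04) and 4 pseudogene copies. Eif4b, the cofactor that stimulates the eIF4A helicases, was at 264, 276 and 288 FPKM against 379.6, 405 and 399 FPKM (log2 fold change 1.005, SE 0.14, limma adjusted P = 3.46e-04). As deposited, with equal sums and after quantile normalization, neither Eif3e (0.41, 0.11 and 0.29) nor Eif4b (0.52, 0.22 and 0.28) was called.

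**Figure D2:**
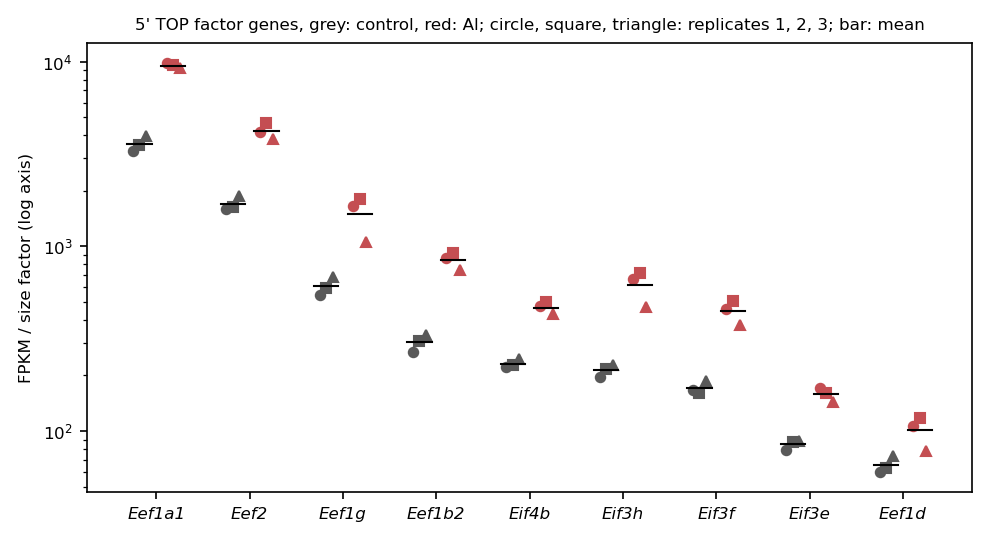
FPKM divided by the size factor of the library (log axis) of the 9 5' TOP factors, with control libraries in grey, Al libraries in red, replicates 1, 2 and 3 as circle, square and triangle, and bars at the group means. The 3 Al libraries lie above the 3 control libraries in all 9 genes, and Al replicate 3 is the lowest Al library in each.

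The 5' TOP factors took a larger part of all factor RNA in the Al group, a measure within each library that a single scaling factor per library does not change, unlike quantile normalization, which alters the values within a library. They held 69.2, 69.4 and 69.7% of the summed factor FPKM in control replicates 1 to 3 and 77.1, 77.4 and 79.2% in Al replicates 1 to 3, which gives 69.4 ± 0.283% and 77.9 ± 1.11% (SD, n = 3 each). The groups did not overlap, and the gap was larger than the spread between libraries. An exact permutation test of 3 libraries against 3 cannot give a two-sided P below 0.1. Eef1a1 alone held 35.8 ± 0.275% of the factor FPKM in control and 41.6 ± 2.87% in Al libraries. Without Eef1a1 and Eef2, the other 5' TOP factors still held 35.4 ± 0.378% of the remaining factor FPKM in control and 44.7 ± 1.28% in Al libraries. The whole family made up 3.18 ± 0.154% of the summed FPKM of the table in control and 4.23 ± 0.238% in Al libraries, most of which was the gain of Eef1a1 (1.14 ± 0.0635% to 1.76 ± 0.207%) and Eef2. Without these genes the family went from 1.50 ± 0.0659% to 1.69 ± 0.0608% (SD, n = 3 each).

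**Figure D3:**
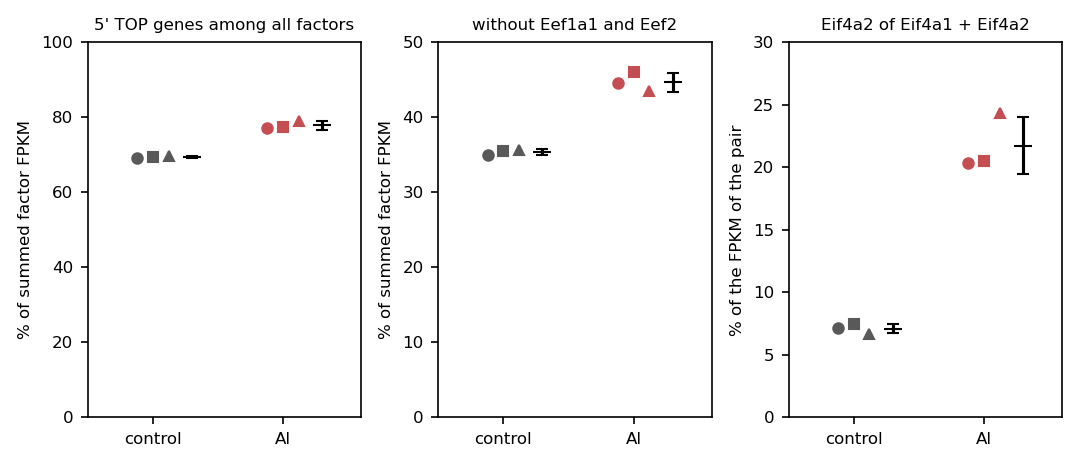
Share of the summed factor FPKM held by the 5' TOP factors (left), the same without Eef1a1 and Eef2 (middle) and the share of Eif4a2 in the summed FPKM of Eif4a1 and Eif4a2 (right), in percent, with 1 point per library (replicates 1, 2 and 3 as circle, square and triangle) and the mean with SD beside them. The Al libraries lie above the control libraries in all 3 panels, at means of 77.9 against 69.4%, 44.7 against 35.4% and 21.7 against 7.11%.

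On the scaled values Al replicate 3, which had the largest size factor of the Al libraries, stood below the others in these genes. It was the lowest of the Al libraries in 9 of 9 5' TOP factors, in 30 of 48 other factors (62.5%) and in 36.8% of all tested genes. As deposited it was the lowest in only 4 of 9 5' TOP factors (Eef1d, Eef1g, Eif3f and Eif3h) and in 22.9% of all tested genes, and it was the highest for Eef1a1. Its 5' TOP share of the factor FPKM, given above, was the highest of the Al libraries. Against the control mean, the median log2 fold change of the 5' TOP factors was 1.42, 1.47 and 1.14 in Al replicates 1 to 3. That of the other factors was 0.67, 0.75 and 0.50, and the difference between both medians was 0.75, 0.71 and 0.64. Without Al replicate 3 the medians of the whole groups were 1.45 and 0.73.

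Outside the 5' TOP genes, the elongation factors behaved differently from one another. Eef1e1, a scaffold protein of the aminoacyl-tRNA synthetase complex that carries an eEF1 name, was not called (log2 fold change 0.15, limma adjusted P = 0.455) and its groups overlapped. Eef1a2, the muscle and neuron paralogue of Eef1a1, was at 0.0550 FPKM in Al replicate 1 and 0 in the other 5 libraries, whereas Eef1a1 was the most abundant member. Eif5a, the hypusine-carrying factor that eases peptide bond formation at stalled sites, was at 173, 188 and 215 FPKM in the control libraries and 419, 409.7 and 247 FPKM in the Al libraries, of which replicate 3 was far below the other Al libraries (log2 fold change 1.35, SE 0.26, limma adjusted P = 0.00178, a call lost with equal sums at 0.57). Its rarer paralogue Eif5a2 was at 1.45, 1.92 and 1.63 FPKM against 0.757, 0.695 and 0.792 FPKM and fell by 0.61 on the log2 scale (SE 0.20, limma adjusted P = 0.0247), so that the paralogues moved in opposite directions. Eif5a2 went from 0.865 ± 0.132% to 0.223 ± 0.0834% of the summed FPKM of the pair (SD, n = 3 each). The call of Eif5a2 was lost without control replicate 2 or 3 or Al replicate 2 or 3, after quantile normalization (-0.46), with a pseudocount of 1 (-0.35), with the replicate number as a block and without the filter on low values.

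The largest decreases of the family were those of Eef2kmt and Eef2k, which code for enzymes that modify eEF2. Eef2k, the calcium- and calmodulin-dependent kinase that phosphorylates eEF2 and slows elongation, was at 9.80, 10.2 and 9.45 FPKM in the control libraries and at 2.9997, 2.26 and 2.27 FPKM in the Al libraries. It fell by 1.46 on the log2 scale (SE 0.17, limma adjusted P = 1.17e-04). The ratio of Eef2k to Eef2 went from 0.00489 ± 0.000501 to 0.000710 ± 0.000161 (SD, n = 3 each). Eef2kmt, the methyltransferase that acts on a lysine of eEF2, was at 5.12, 4.76 and 4.58 FPKM against 0.946, 0.748 and 1.24 FPKM and fell by 1.75 (SE 0.18, limma adjusted P = 6.88e-05). Both genes were called lower under all 16 other settings. Eef1akmt1, which methylates eEF1A, was at 13.5, 13.01 and 15.4 FPKM in control and 8.03, 7.08 and 5.74 FPKM in Al libraries, and its log2 fold change of -0.52 (limma adjusted P = 0.0310) did not reach the fold threshold, which it passed without control replicate 2 or Al replicate 1, as deposited (-1.003) and with equal sums (-1.30).

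All 5 tested genes named after eIF1 and eIF1A, the factors that select the start codon on the small subunit, rose, where 25.5% of all tested genes did. Their median log2 fold change was 0.70. Eif1 was at 352, 399 and 428 FPKM in control and 444, 461 and 444 FPKM in Al libraries, with a log2 fold change of 0.69 (limma adjusted P = 0.00568) and 18 pseudogene copies, the most of the family. Its paralogue Eif1b was at 33.9, 32.8 and 32.6 FPKM against 36.4, 37.5 and 48.2 FPKM (log2 fold change 0.77, limma adjusted P = 1.63e-04). The eIF1A genes behaved alike in direction. Eif1a was at 18.2, 20.1 and 23.5 FPKM and 21.6, 23.7 and 26.2 FPKM (log2 fold change 0.70, limma adjusted P = 8.99e-04), and Eif1ax, the X-linked gene, was at 138, 155 and 144 FPKM and 184, 189 and 138 FPKM (log2 fold change 0.70, limma adjusted P = 0.00875). In these 4 genes the deposited FPKM of the groups lay close together or overlapped and the calls were lost under all 3 other scalings, with log2 fold changes of 0.20 to 0.29 as deposited. Eif1ad, an eIF1A domain protein, had the largest value of the group at 1.25 (SE 0.15, limma adjusted P = 1.60e-04), a call lost with equal sums (0.46).

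In eIF2, the 3 subunit genes differed in how far they moved. Eif2s3x, the gamma subunit that binds GTP and the initiator tRNA, was at 38.5, 42.3 and 45.7 FPKM in the control libraries and 80.5, 82.6 and 64.9 FPKM in the Al libraries, among the 5 largest log2 fold changes outside the 5' TOP genes (1.33, SE 0.16, limma adjusted P = 1.43e-04). Its Y-linked counterpart Eif2s3y was at 0 in all 6 libraries. Eif2s1, the alpha subunit that the stress kinases phosphorylate, rose by 0.70 (limma adjusted P = 7.64e-04), whereas the beta subunit Eif2s2 was not called (0.17, limma adjusted P = 0.106). The ratio of Eif2s3x to Eif2s2 went from 1.26 ± 0.109 to 2.85 ± 0.554 (SD, n = 3 each). Of the separate tRNA-binding factors named after eIF2, Eif2a rose by 0.62 (limma adjusted P = 9.30e-04), a call that was lost without control replicate 2 or Al replicate 2, and Eif2d was not called (0.06). The calls of Eif2s1 (0.21 as deposited) and Eif2a (0.13) were lost under all 3 other scalings, and that of Eif2s3x with equal sums (0.54).

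eIF2B, the exchange factor that recycles eIF2 and is inhibited when eIF2 is phosphorylated, had 2 of its 5 subunit genes called, a share no larger than the 49.2% called in either direction over all tested genes. Eif2b1 (log2 fold change 0.87, limma adjusted P = 0.00101) and Eif2b5, which holds the catalytic site (0.83, limma adjusted P = 3.57e-04), rose. Neither was called as deposited (0.38 and 0.34) or with equal sums (0.084 and 0.045), and Eif2b5 was not called after quantile normalization (0.52). Eif2b4, Eif2b2 and Eif2b3 were not called, at 0.31, 0.11 and -0.20. The 5 subunits of 1 complex thus spread over about 1 log2 unit, from -0.20 to 0.87, a distance that other scaling factors hardly alter.

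The eIF3 complex was the largest group, with 13 of 14 genes called higher and a median log2 fold change of 0.89, where 25.5% of all tested genes rose, or 55.0% of those that averaged 50 FPKM or more. The count rests on the scaling. Of the 13 calls, 4 were kept as deposited (Eif3f, Eif3h, Eif3i and Eif3l), 2 with equal sums (Eif3f and Eif3h) and 4 after quantile normalization (Eif3f, Eif3h, Eif3j1 and Eif3j2), where 13.5%, 8.85% and 21.5% of all tested genes rose. The 3 genes of the 5' TOP list had a median of 1.37 and the other 11 a median of 0.82, of which 10 rose. The largest of these 11 were Eif3i at 1.23 (limma adjusted P = 6.25e-04) and Eif3l at 1.20 (limma adjusted P = 4.07e-04), and Eif3l is a gene whose annotated start lies in a pyrimidine run although it was not on the list of 5' TOP factors. Eif3m, Eif3d and Eif3b followed at 0.99, 0.91 and 0.89, and the large scaffold subunits Eif3a and Eif3c stood at 0.72 and 0.67. The call of Eif3c was lost without control replicate 1 or 2 or Al replicate 2.

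The exception was Eif3g, an RNA-binding subunit, at 112, 126 and 119.9 FPKM in control and 90.5, 99.7 and 99.1 FPKM in Al libraries. Its log2 fold change was 0.18 (limma adjusted P = 0.173), and its ratio to Eif3i, its neighbour in the complex, went from 0.716 ± 0.0789 to 0.347 ± 0.0644 (SD, n = 3 each). The near-identical genes Eif3j1 and Eif3j2, for a loosely bound subunit, were the lowest expressed of the complex. Eif3j1 was at 8.19, 6.33 and 6.73 FPKM and 8.92, 8.49 and 8.57 FPKM, and Eif3j2 was at 5.27, 6.72 and 7.31 FPKM and 7.10, 7.92 and 9.47 FPKM. Their log2 fold changes were 0.78 and 0.82 (limma adjusted P = 0.00129 and 0.00122), but reads that fit both genes make their division uncertain.

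The eIF4 genes were divided, with 5 of 10 called higher, 5 not called and a median log2 fold change of 0.49. Beside that count stand 25.5% called higher over all tested genes and 55.0% over those that averaged 50 FPKM or more. The pair of eIF4A helicase paralogues showed the largest contrast. Eif4a2 was at 23.4, 26.8 and 26.1 FPKM in the control libraries and 75.5, 76.0 and 93.3 FPKM in the Al libraries, the largest rise of the family (4.47-fold, log2 fold change 2.16, SE 0.09, limma adjusted P = 4.03e-06). Eif4a1, the major paralogue, was at 303, 332 and 364 FPKM against 295, 294 and 289.7 FPKM and was not called (log2 fold change 0.31, limma adjusted P = 0.101). The ratio of Eif4a2 to Eif4a1 within a library went from 0.0765 ± 0.00441 to 0.279 ± 0.0375. Eif4a2 went from 7.11 ± 0.381% to 21.7 ± 2.26% of the summed FPKM of the pair (SD, n = 3 each), with no overlap between the groups. Reads may be shared between the paralogues and their pseudogene copies, of which 3 matched Eif4a1 and 2 matched Eif4a2. Eif4a3, the helicase of the exon junction complex, was at 84.6, 90.6 and 91.8 FPKM and 173, 171 and 159 FPKM and also rose (1.40, SE 0.12, limma adjusted P = 3.58e-05).

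The cap-binding protein gene Eif4e was at 8.79, 8.40 and 8.53 FPKM in the control libraries and 11.3, 11.995 and 13.6 FPKM in the Al libraries and rose by 0.99 (SE 0.10, limma adjusted P = 5.28e-05), a call lost as deposited (0.51) and with equal sums (0.21). Its paralogue Eif4e2 was at 10.5, 11.1 and 12.9 FPKM against 8.41, 8.29 and 9.33 FPKM and was not called (0.08, limma adjusted P = 0.546). Eif4e3 was at 0.00893 FPKM in control replicate 3 and 0 in the other libraries, and Eif4e1b, an oocyte form, was at 0.0709 FPKM or less in every library. In the eIF4G scaffold family, Eif4g1 was at 123, 122 and 135 FPKM and 103, 108 and 119 FPKM and was not called (0.28, limma adjusted P = 0.0436). Eif4g2, which lacks the eIF4E binding site and serves cap-independent initiation, was at 111, 114 and 118 FPKM and 119.7, 137 and 134 FPKM and rose by 0.68 (limma adjusted P = 7.99e-04), a call lost under all 3 other scalings (0.19 as deposited). Eif4g3 was at 4.28, 4.29 and 4.39 FPKM against 2.55, 2.07 and 2.74 FPKM and was not called (-0.33, limma adjusted P = 0.0758). The 3 paralogues were thus ordered Eif4g2, Eif4g1, Eif4g3 by log2 fold change, an order that other scaling factors hardly alter, although quantile normalization put Eif4g1 (-0.33) below Eif4g3 (1.5e-04). The helicase cofactors differed as well. Eif4h was not called (-0.31, limma adjusted P = 0.0280) except lower under the other 3 scalings (-0.80 to -1.10), and its ratio to the 5' TOP gene Eif4b went from 0.643 ± 0.0298 to 0.258 ± 0.0219 (SD, n = 3 each).

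The genes for proteins that bind eIF4E, which are the 3 repressors that mTORC1 inactivates by phosphorylation and the transporter gene Eif4enif1, had 0 of 4 called in limma. Of all tested genes, 49.2% were called in either direction. All 4 genes for eIF4E binding proteins had an unadjusted limma P under 0.05, 2 with a negative and 2 with a positive log2 fold change. On the recovered reads, limma voom called 0 of the 4. With the FPKM as deposited, with equal sums and after quantile normalization, Eif4ebp1 (-1.06, -1.36 and -1.17) and Eif4ebp2 (-0.96, -1.26 and -0.74) were called lower. Under these scalings 41.3%, 52.2% and 23.3% of all tested genes were called lower. Eif4ebp1, the most abundant, was at 139, 156 and 197 FPKM in the control libraries and 70.4, 80.8 and 82.8 FPKM in the Al libraries. Its groups did not overlap. Its log2 fold change of -0.57 (SE 0.15, limma adjusted P = 0.00841) was just short of the fold threshold, which it passed without control replicate 1 or 2 or Al replicate 2. Eif4ebp2, the form most used in neurons, was at 46.8, 39.5 and 45.9 FPKM against 20.2, 22.9 and 24.6 FPKM (-0.48, limma adjusted P = 0.00434). Eif4ebp3 was at 8.63, 7.74 and 8.38 FPKM against 6.55, 7.11 and 9.75 FPKM, with overlapping groups as deposited and a log2 fold change of 0.38 (limma adjusted P = 0.0283). Measured against its target within each library, Eif4ebp1 went from 19.2 ± 3.65 FPKM per FPKM of Eif4e to 6.36 ± 0.332 (SD, n = 3 each). Eif4enif1, which carries eIF4E into the nucleus, had a log2 fold change of 0.22 (limma adjusted P = 0.0532).

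Of the factors that act on the joining of the ribosomal subunits, Eif5 had the second-largest log2 fold change of the family. Eif5, which makes eIF2 hydrolyse its GTP at the start codon, was at 31.7, 31.7 and 38.3 FPKM in the control libraries and 65.7, 65.0 and 86.1 FPKM in the Al libraries (log2 fold change 1.57, SE 0.12, limma adjusted P = 1.76e-05), with 3 pseudogene copies. Eif5b, the GTPase of subunit joining, was not called (0.37, limma adjusted P = 0.0135), and the ratio of Eif5 to Eif5b went from 2.64 ± 0.346 to 6.05 ± 0.333 (SD, n = 3 each). Eif6, which keeps free large subunits apart from small ones, rose by 0.96 (limma adjusted P = 4.67e-04), a call lost under all 3 other scalings (0.48 as deposited).

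**Figure D4:**
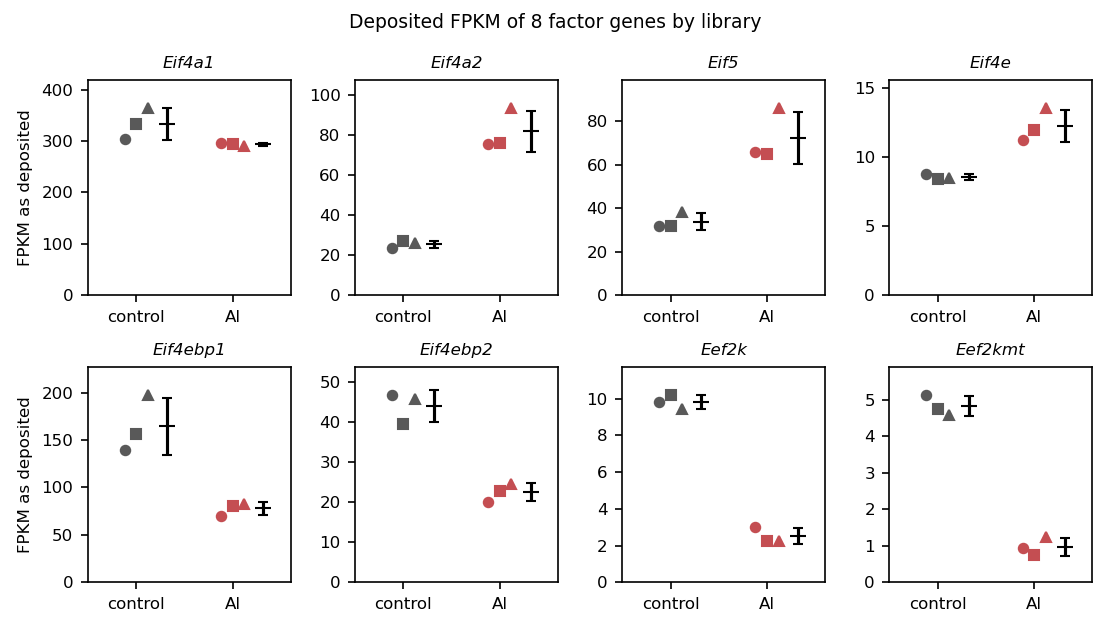
Deposited FPKM in each library (replicates 1, 2 and 3 as circle, square and triangle, mean with SD beside them) of 8 translation factors, each panel with its own linear axis from 0. Eif4a2, Eif5 and Eif4e are higher and Eif4ebp1, Eif4ebp2, Eef2k and Eef2kmt lower in all Al libraries, while Eif4a1 is slightly lower here and slightly higher after scaling.

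Genes that act on these factors or beside them, but lie outside the symbol rule, gave a mixed picture. Of 79 such genes tested, 23 were called higher and 13 lower, beside 25.5% and 23.7% over all tested genes. The median log2 fold change of the 79 genes was 0.13. Among them were 9 other 5' TOP genes that are neither factors nor ribosomal proteins, of which 7 rose and 2 were not called (median 1.16), beside 55.0% higher among all tested genes that averaged 50 FPKM or more, a level that all 9 exceeded. They were led by Rack1 at 1.58 (limma adjusted P = 0.00196). Nap1l1 and Vim, named after their values were seen, were not called, at 0.54 and 0.37. Of this list 6 rose as deposited, 2 with equal sums, and 1 rose and 1 fell after quantile normalization. In the mTORC1 arm, with the S6 kinases and the TOP binding proteins, 2 of 20 genes rose and 7 fell (median -0.32), against 13 that fell as deposited and 14 with equal sums, where no gene of the list rose, beside 41.3% and 52.2% lower over all tested genes under those scalings. The lowest was Pdcd4, an inhibitor of eIF4A, at 5.29, 6.03 and 3.53 FPKM in the control libraries and 0.354, 0.416 and 1.06 FPKM in the Al libraries (-2.49, limma adjusted P = 2.82e-04), and the highest was Akt1s1, a subunit that restrains mTORC1, at 0.64 (limma adjusted P = 0.00178).

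Of the 4 eIF2 kinases, the phosphatase subunits that oppose them and 3 genes that modulate the kinases (Impact, Gcn1l1 and Dnajc3), 3 of 9 tested genes rose and 2 fell (1 and 2 as deposited, 1 and 4 with equal sums). Ppp1r15b, the constitutive phosphatase subunit, rose most at 1.39 (limma adjusted P = 2.42e-05), and Eif2ak2, the kinase activated by double-stranded RNA, fell most at -1.13 (limma adjusted P = 3.05e-04). Of the enzymes that modify eIF5A, eEF1A and eEF2 outside the family symbols, 2 of 11 rose and 1 fell (1 and 3 as deposited, 1 and 6 with equal sums). They included Dph2 at 1.41 (limma adjusted P = 1.07e-05) as the highest and Dph6 at -1.79 (limma adjusted P = 3.21e-05) as the lowest, both for steps in the making of the diphthamide residue of eEF2. Of the release, recycling and rescue factors and remaining initiation factors, 5 of 19 rose, led by the release factor gene Gspt2 at 1.63 (limma adjusted P = 6.90e-05). In the same list 2 fell (7 as deposited and 9 with equal sums, with 3 higher under each), led by Gtpbp2 at -1.34 (limma adjusted P = 5.84e-05). The mitochondrial translation factors had 4 of 11 genes higher, led by Mtrf1l at 1.13 (limma adjusted P = 1.56e-04), and 1 lower, Mtfmt, the enzyme that formylates the mitochondrial initiator tRNA, at -2.62 (limma adjusted P = 7.46e-05). The shares called higher in these last 4 lists and in the mTORC1 arm stood beside 25.5% over all tested genes, and those called lower beside 23.7%. In the mitochondrial list 2 were higher and 5 lower as deposited, where all tested genes had 13.5% higher and 41.3% lower, and none higher and 7 lower with equal sums, where all tested genes had 8.85% and 52.2%. The same shares stand beside the counts of the other lists under those scalings.

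**Figure D5:**
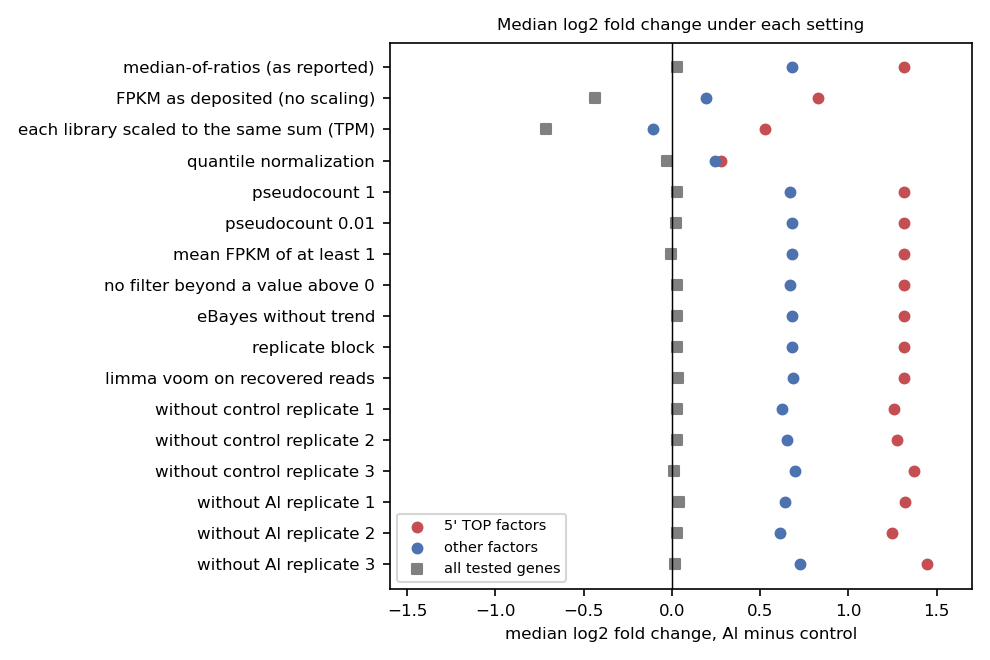
Median log2 fold change (Al minus control) of the 5' TOP factors (red), the other factors (blue) and all tested genes (grey squares) under the reported setting and 16 others. The red and blue points are 0.63 apart under the reported setting, as deposited and with equal sums, and 0.035 apart after quantile normalization; the blue point passes below 0 (-0.11) with equal sums.

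Of the 39 factors called in the reported setting, 7 were called in the same direction under all 16 others. These were Eif3f, Eif3h, Eif4a2, Eif4a3 and Eif5 on the higher side and Eef2k and Eef2kmt on the lower side, so that 2 of the 9 5' TOP factors were among them. The share of all called genes that held under the same settings was not counted, so these numbers describe the factors alone.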

How the data were processed

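RNA of HT22 cells was measured in 3 control and 3 Al libraries, grouped by the titles C and M. The authors deposited FPKM, 1 value per gene symbol and library. The study's methods name Trimmomatic, SortMeRNA, HISAT2 and GRCm38/mm10, whereas the submitters' processing notes name fastp, HISAT2, HTSeq and GRCm39, and the design text names another genome. The annotation, the treatment of reads that fit several genes and whether counting used strand are not given in the sources used here, so members with pseudogene copies or overlapping genes are uncertain. The authors called genes with DESeq2, which was not run here. The labels give a range of doses for the series, and the dose and time used here come from the methods.

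The whole reads behind the FPKM were recovered for 17688 of the 17688 genes above 0 (tolerance 0.005 reads), up to a divisor common to a gene's 6 values, so that a gene above 0 in 1 library comes out as 1 read. Recovery and test were checked on simulated data. A value of 0 allows up to 3 expected reads (counting error only). FPKM were divided by median-of-ratios size factors from genes that averaged 1 FPKM or more, and log2(value + 0.1) was tested with lmFit and eBayes with trend in limma 3.58.1 (R 4.3.3), for the 12889 genes that averaged 0.1 FPKM or more. Fold changes on this scale understate those of low genes. P values set the difference between the group means against the spread between libraries within the groups, moderated over all tested genes. Replicates differed by more than counting noise, so none was a repeat deposit.

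The members, the 5' TOP list and the related lists were chosen with earlier results of these data known, and the lists are described by counts and medians without a test. Any member could be named. Library values are given for the 5' TOP factors, the 5 highest and 5 lowest other factors that averaged 1 FPKM or more, the paralogue sets and, outside this rule, Eif3g. Of the related lists, the called genes with the highest and lowest log2 fold change in each could be named. Alternatives were 3 other scalings, 2 pseudocounts, 2 filters, no trend, the replicate number as a block, the omission of each library and a larger fold threshold. limma voom on recovered reads was also run. After the data had been seen, members with a pseudogene copy (minimap2 2.31-r1302, GENCODE transcripts on GRCm38) were left out, and members that averaged 50 FPKM or more were taken alone. The sequence window was set after sequences had been viewed. Tables and figures were made with Python 3.11.15, numpy 2.4.6, pandas 2.3.3 and matplotlib 3.10.9.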

Additional observations from a re-analysis of the deposited data

How the results depend on the processing

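The difference between the medians of the 5' TOP and the other factors was 0.63 to 0.65 under the other scaling factors, pseudocounts, filters, the fit without trend and limma voom. A single scaling factor per library shifts all genes by almost the same amount, and the fit without trend leaves fold changes as they are. These settings could therefore hardly move the difference. Quantile normalization, which alters the values within a library, brought it to 0.035. With the FPKM as deposited, 14 factors rose and 9 fell (other factors 8 and 9), and the medians of the 5' TOP and other factors were 0.83 and 0.19. Of the 79 related genes 13 rose and 30 fell, where 13.5% of all tested genes rose and 41.3% fell. With every library scaled to 1 common sum, 7 factors rose and 15 fell (5' TOP factors 4 higher, other factors 3 higher and 15 lower), and the medians were 0.53 and -0.11. Of the related genes 7 rose and 40 fell, where 8.85% of all tested genes rose and 52.2% fell. With quantile normalization 12 factors rose and 5 fell (5' TOP factors 2 higher, other factors 10 higher and 5 lower), and the medians were 0.28 and 0.24. Of the related genes 13 rose, where 21.5% of all tested genes rose. A log2 fold change over 1 left 15 factors, 8 other factors and 13 related genes higher. A pseudogene copy was found for 25 members, 7 of them 5' TOP factors, and Eef1b2 and Eif3f were the 5' TOP factors without one. Leaving out the members with a copy was an alternative chosen after seeing the data. Then 15 factors rose, 2 of them 5' TOP and 13 other factors, counts that are lower by construction with fewer genes. The median of the other factors fell from 0.68 to 0.31. The difference of 1.12 rests on Eef1b2 and Eif3f alone on the 5' TOP side. Restricted to a mean FPKM of at least 50, also chosen after seeing the data, 17 other factors rose, 0 factors and 0 other factors fell in limma, and the difference was 0.51. The causes of the scaling effects were not tested.

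With 1 library left out at a time, 31 to 36 factors rose and 2 to 4 fell; 6 to 9 of the 5' TOP factors rose (6 without control replicate 2) and 0 fell; 25 to 27 other factors rose and 2 to 4 fell; the medians were 1.24 to 1.45 and 0.61 to 0.73 and their difference 0.62 to 0.72 (0.72 without Al replicate 3). Of the related genes, 22 to 24 rose and 12 to 15 fell, and the 5' TOP share of the factor FPKM was 69.3 to 69.6% in the control and 77.2 to 78.3% in the Al group. The groups share replicate numbers. Deviations of same-numbered libraries from their group means correlated at -0.033, -0.026 and -0.073, and those of differently numbered libraries at -0.057 to 0.076. This gave no sign of pairing, but it cannot exclude that same-numbered libraries were handled together. A fit with the replicate number as a block called 34 factors higher and 2 lower, with 7 of the 5' TOP factors higher, and lost the calls of Eef1a1, Eef2 and Eif5a2, as did the fit without a filter on low values. A pseudocount of 1 lost that of Eif5a2.

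The sign of single factors turned for 12 called and 12 uncalled factors with equal sums, for 4 called and 7 uncalled ones with quantile normalization and for 12 uncalled ones as deposited. As deposited and with equal sums, 6 uncalled factors were called lower (Eef1akmt1, Eif2b3, Eif4ebp1, Eif4ebp2, Eif4g3 and Eif4h). With the FPKM as deposited, the log2 fold change became -0.33 for Eef1e1, -0.37 for Eif2b2, -0.18 for Eif2b4, -0.42 for Eif2d, -0.32 for Eif2s2, -0.31 for Eif3g, -0.18 for Eif4a1, -0.40 for Eif4e2, -0.10 for Eif4ebp3, -0.26 for Eif4enif1, -0.21 for Eif4g1 and -0.12 for Eif5b. With equal sums it became -0.18 for Eef1d, -0.63 for Eef1e1, -0.10 for Eif1, -0.087 for Eif1a, -0.085 for Eif1ax, -0.013 for Eif1b, -0.17 for Eif2a, -0.67 for Eif2b2, -0.47 for Eif2b4, -0.72 for Eif2d, -0.083 for Eif2s1, -0.61 for Eif2s2, -0.068 for Eif3a, -0.12 for Eif3c, -0.61 for Eif3g, -6.5e-04 for Eif3j1, -0.072 for Eif3k, -0.48 for Eif4a1, -0.70 for Eif4e2, -0.39 for Eif4ebp3, -0.56 for Eif4enif1, -0.51 for Eif4g1, -0.11 for Eif4g2 and -0.42 for Eif5b. With quantile normalization it became -0.11 for Eef1a1, -0.28 for Eef2, -0.18 for Eif1, -0.16 for Eif2b2, 0.13 for Eif2b3, -0.061 for Eif2s2, -0.010 for Eif3c, -0.41 for Eif3g, -0.42 for Eif4a1, -0.33 for Eif4g1 and 1.5e-04 for Eif4g3. It was -0.0042 for Eef1e1 without control replicate 1, and -0.016 and -0.13 for Eif2d without control replicate 2 and without Al replicate 2. The recovered depth (35 reads or more per library for a tested factor) limits only the rarest members, and 4 factors were not tested.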

Other observations

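The annotated start of 5 factors (Eef1a1, Eif2b5, Eif2s3x, Eif3f and Eif3l) lay inside a run of at least 8 pyrimidines, and all 5 rose, with a median log2 fold change of 1.33. Over all 392 tested genes with such a start, 27.0% rose and 25.5% fell, with a median of 0.02, and after leaving out the ribosomal protein genes and the factors, 22.5% of 369 rose and 27.1% fell, with a median of -0.05. The 9393 tested genes with no such start had a median of 0.03, with 25.3% higher and 23.7% lower. These sequences come from RefSeq on GRCm38.p6, the split was made after the data had been seen, and no test was run on it.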
